A study of Mus musculus with 5 samples.

Results

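The paternally methylated imprint regions are the stretches of mouse chromosomes 7, 9 and 12 around H19, Igf2, Dlk1, Meg3 and the region upstream of Rasgrf1. Their members are the CpGs that lie in 3 windows of the mm9 genome, defined by position, with the forward and reverse strand readings of a CpG merged into 1 value. The windows were chosen with earlier results of these data known. A total of 298 CpGs were covered in all 5 libraries, of 1030056 autosomal CpGs covered in all libraries. In any library, 346 CpGs of the windows were covered. The window of H19 and Igf2 held 152 of the 298, the window from Dlk1 to Meg3 held 140, and the window upstream of Rasgrf1 held 6.

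The libraries came from LSK cells, the lineage-negative, Sca1-positive and cKit-positive fraction of mouse bone marrow that holds blood stem and early progenitor cells. There were 2 libraries from C57BL/6 mice with 1 targeted gene, here targeted 1 and 2, and 3 from wild-type C57BL/6 mice, here wild-type 1, 2 and 3. The targeted libraries are titled KO while their genotype entry reads +/-, so the number of targeted alleles is not settled by the labels. Age and sex are not given for these libraries. An age of 12 months is stated for the animals of the transcriptome experiment only. The assay was ERRBS (enhanced reduced representation bisulfite sequencing), which reads short DNA fragments cut at CCGG and therefore samples CpG-rich places more densely than the rest of the genome. Nothing in the labels states whether libraries within a group had separate animals as their source. The p-values below therefore rest on the spread among these 5 libraries alone, and that spread may be technical.

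In genomic imprinting, the copy of a gene inherited from 1 parent is expressed and the other is silenced, and a methylated control region on the copy from 1 parent sets this choice. Most such control regions are methylated on the maternal copy. The regions that control H19 and Igf2, Dlk1 and Meg3, and Rasgrf1 belong to the few that are methylated on the copy from the father. On the maternal copy, the unmethylated H19 control region binds the insulator protein CTCF and keeps downstream enhancers from Igf2. In the Dlk1 and Meg3 domain the protein-coding gene Dlk1 is expressed from the paternal copy and the noncoding RNA gene Meg3 from the maternal copy. A region methylated on 1 copy in every cell gives a CpG level near 50% on both strands. The single-CpG tables carry no information on the parental copy of a read, so the parent of origin was not measured, and neither was a mixture of cells with different levels.

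The promoters of Igf2 and Meg3 could be placed on the deposited positions by the spacing of their CpGs. They are shown because the measured CpGs of the Igf2 promoter were nearly unmethylated and those of the Meg3 promoter partly methylated. The sequences are from RefSeq on GRCm38.p6, a later build than mm9, and cover the 250 bases before the start of the gene, read 5′ to 3′ in the direction of the gene. The capitals mark the CpGs that were measured. The Igf2 sequence is chr7:142658805-142659054 on the minus strand and the Meg3 sequence is chr12:109540746-109540995 on the plus strand.
Igf2: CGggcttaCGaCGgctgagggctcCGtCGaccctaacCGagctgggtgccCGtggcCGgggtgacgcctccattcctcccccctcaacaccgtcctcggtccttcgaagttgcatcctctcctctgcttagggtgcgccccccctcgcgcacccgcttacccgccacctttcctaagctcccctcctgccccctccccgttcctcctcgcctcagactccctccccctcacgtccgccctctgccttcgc
Meg3: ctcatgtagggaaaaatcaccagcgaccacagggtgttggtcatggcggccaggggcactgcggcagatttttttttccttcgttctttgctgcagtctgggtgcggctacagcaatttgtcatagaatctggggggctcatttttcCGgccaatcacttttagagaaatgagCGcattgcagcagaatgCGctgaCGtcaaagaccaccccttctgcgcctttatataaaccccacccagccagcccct
At the Igf2 promoter, 8 measured CpGs matched the spacing, against 3 for the next best placement. At the Meg3 promoter, 4 matched, against 2 for the next best. Each stretch holds 1 CCGG, the recognition sequence of the cutting enzyme, which 47.1% of 32851 promoters in the table hold in the 250 bases before the start. The Igf2 stretch holds 22 CpGs and the Meg3 stretch 10, against a median of 6 in all promoters.

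The measured Igf2 promoter CpGs were nearly unmethylated in every library, at 0 to 5.77% with 70 to 329 reads per CpG. They all lay 194 to 250 bases before the start, and the CpGs nearer to it were not measured. The 4 measured Meg3 promoter CpGs were partly methylated, with means of 70.8% in targeted 1, 55.4% in targeted 2, 56.2% in wild-type 2 and 31.3% in wild-type 3. They were not covered in wild-type 1, and only 12 to 20 reads stood behind each value. Libraries of the same group were far apart at this depth, and no comparison was made at these CpGs. Other promoters of Igf2, and those of Dlk1 and Rasgrf1, were not placed.

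The deposited tables held 1354420 to 1473602 strand-specific positions per library with a summed coverage of 122015958 to 151634492 reads, and no position below 10 reads. Median coverage of the 298 CpGs was 83.5 and 119 reads in targeted 1 and 2, and 110, 124 and 99 reads in wild-type 1, 2 and 3. The median over all autosomal CpGs was 88 to 113 reads in the 5 libraries. Intervals given below are 95% Wilson intervals and cover counting error only, since the reads carry no molecular identifiers.

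The 3 windows differed mainly in the mix of unmethylated and methylated CpGs. In the window of H19 and Igf2 122 CpGs had a mean below 20%, 14 a mean of 20 to 80% and 16 a mean above 80%. Between Dlk1 and Meg3 these counts were 69, 21 and 50, and upstream of Rasgrf1 they were 5, 1 and 0. CpGs partly methylated in every library, between 20 and 80%, made up 29 of the 298 (9.73%), against 43869 of all autosomal CpGs (4.26%). Of the 29, 5 lay on the H19 promoter side, 3 in the H19 control region, 1 in H19, 1 between the control region and Igf2, 2 in Igf2, 5 in Dlk1, 5 between Dlk1 and the intergenic control region, 6 on the Meg3 promoter side and 1 upstream of Rasgrf1. These are counts of CpGs, many of which share reads, and no test was made of their difference.

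**Figure D1:**
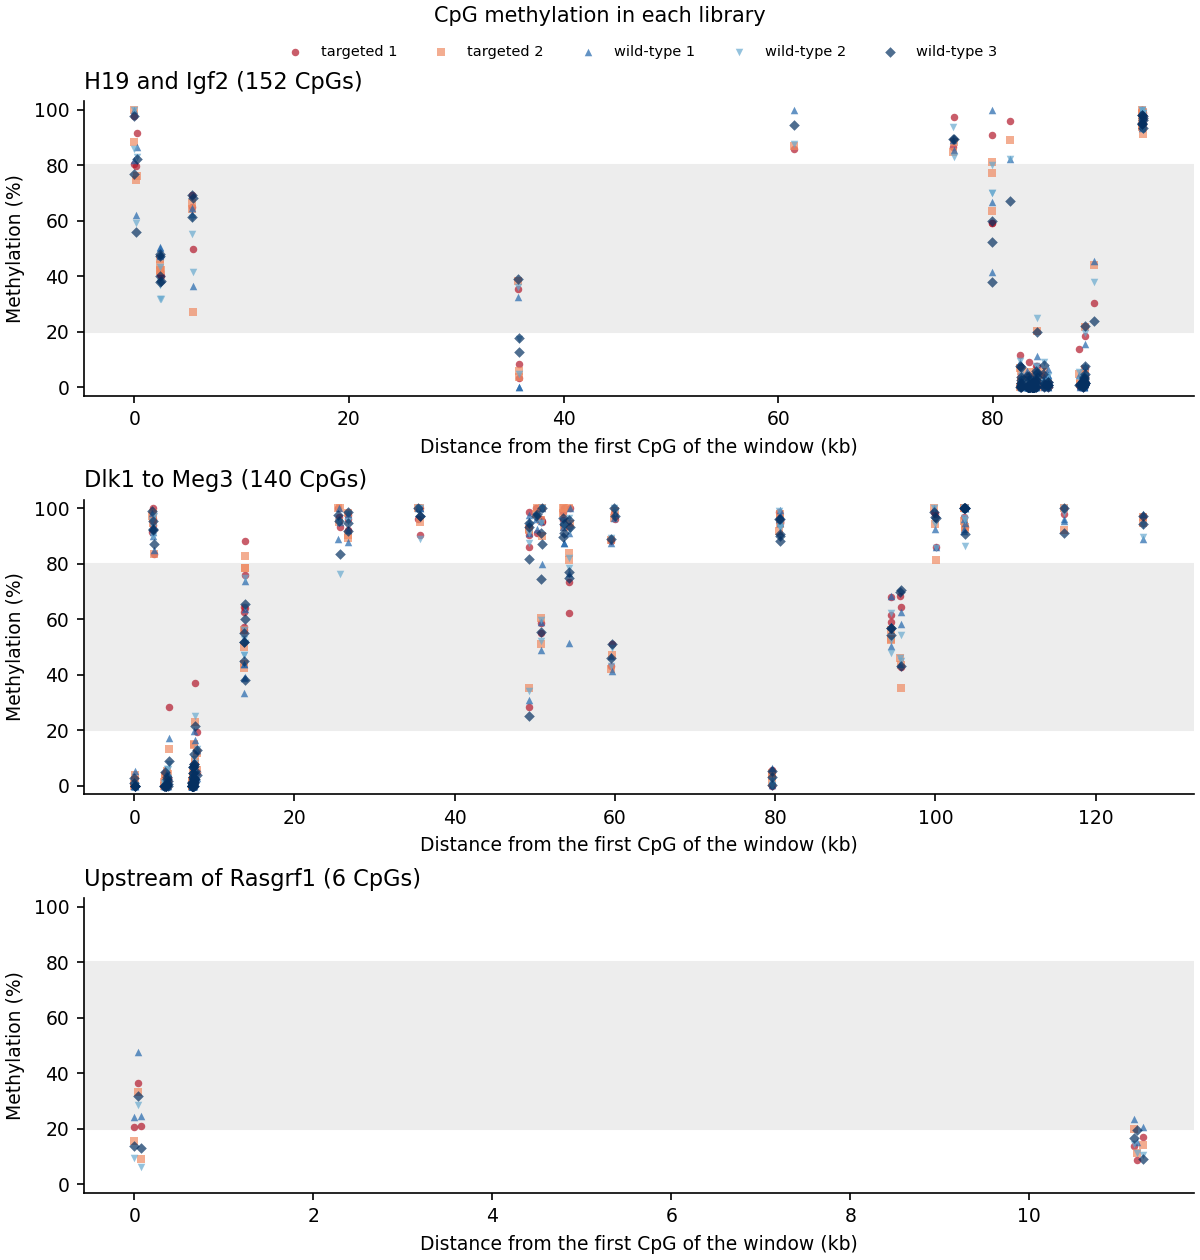
Methylation of each CpG (vertical axis, %) against its distance in kilobases from the first covered CpG of its window, for the 3 windows and 5 libraries; the grey band spans 20 to 80%. Unmethylated CpGs crowd near the measured Igf2 promoter and toward the start of Dlk1. The CpGs partly methylated in every library include the 5 on the H19 promoter side and the 6 on the Meg3 promoter side.

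The window means were 16.1% and 16.0% in targeted 1 and 2 and 16.0, 15.8 and 15.5% in wild-type 1, 2 and 3 for H19 and Igf2, a difference of 0.249 points (exact permutation test, two-sided, p = 0.4). From Dlk1 to Meg3 they were 44.1 and 43.5% in the targeted and 42.2, 42.8 and 43.0% in the wild-type libraries, a difference of 1.16 points (exact permutation p = 0.1). The groups did not overlap in that window, and 0.1 is the smallest p that 2 against 3 libraries allow. Upstream of Rasgrf1 the values were 19.6 and 17.3% against 26.0, 13.5 and 17.4%, a difference of -0.530 points (exact permutation p = 0.9), and the groups overlapped. With reads pooled over CpGs the differences were 2.28 points for H19 and Igf2 (exact permutation p = 0.2) and 6.38 points for Dlk1 to Meg3 (p = 0.2), and on CpGs read on both strands the latter was 0.269 points (p = 0.5). Pooled values weight each CpG by its reads, so they also depend on the share of reads from unmethylated and methylated CpGs. Upstream of Rasgrf1 the sign turned without targeted 2 (0.656 points) and without wild-type 1 (2.98 points). After Benjamini-Hochberg adjustment over the 3 windows the p-values were 0.6, 0.3 and 0.9. All differences here are targeted minus wild type in percentage points.

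For a closer view the windows were divided into segments of round kilobases around the genes and control regions, set from general knowledge of their mm9 positions, and 13 of these held CpGs covered in all libraries. The mean over the CpGs of a segment was compared between the groups with the exact permutation test, two-sided. The smallest of the 13 p-values was 0.1 before and 0.433 after Benjamini-Hochberg adjustment over the segments.

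**Figure D2:**
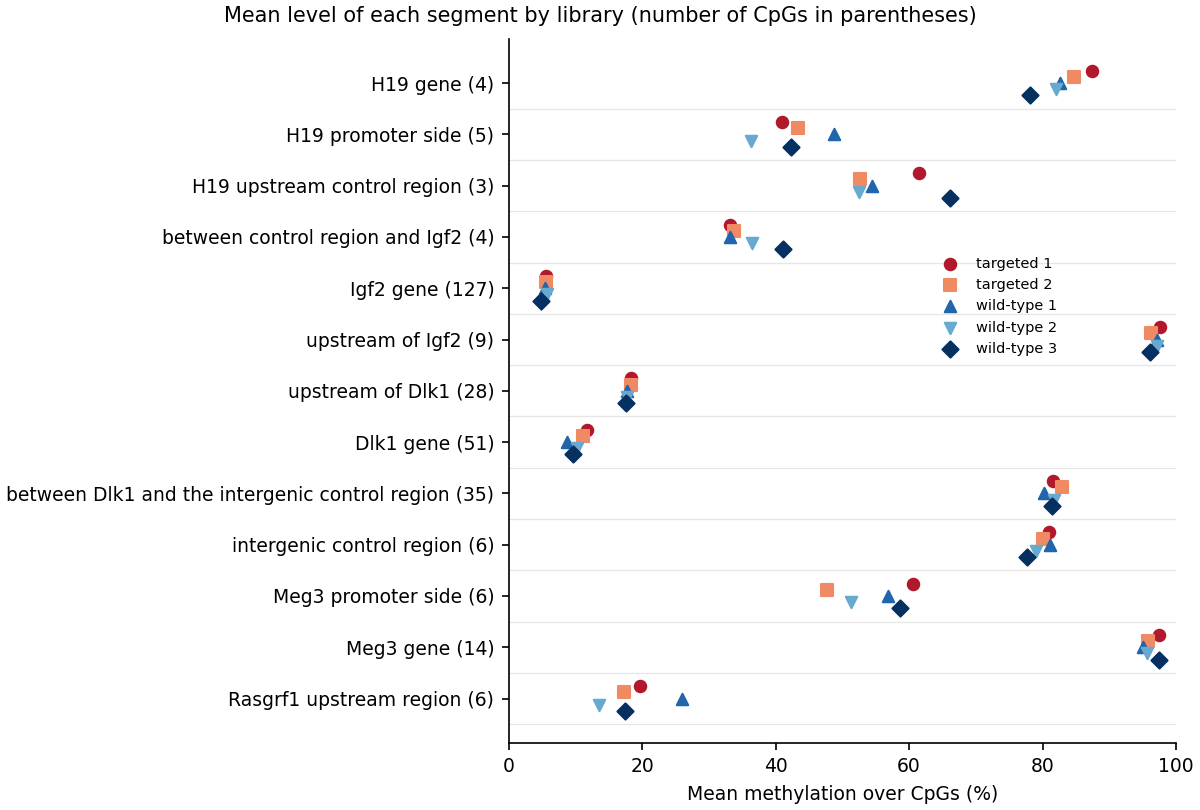
Mean methylation (horizontal axis, %) of each of the 13 segments in each library; each point is 1 library and the number in parentheses is the number of CpGs in the segment. The segments beside H19 and Meg3 lie in the middle of the scale, where the libraries of the same group are farther apart than the group means.

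H19 gives rise to a long noncoding RNA expressed from the maternal copy. Its promoter side and upstream control region were the parts of the chromosome 7 window closest to 50%. Over the 5 CpGs on the promoter side (chr7:149764070-149764147 in mm9) the level was 41.0% in targeted 1, 43.4% in targeted 2, 48.7% in wild-type 1, 36.3% in wild-type 2 and 42.3% in wild-type 3. The group values were 42.2% ± 1.70 (SD, n = 2) and 42.5% ± 6.23 (SD, n = 3), a difference of -0.271 points (exact permutation p = 1) that turned to 0.928 without targeted 1 and 2.87 without wild-type 1. Both targeted libraries lay inside the wild-type range, between wild-type 2 and wild-type 1. The most deeply read of these CpGs, at 149764109, had 41.4% (interval 35.7 to 47.2%) in targeted 1 and 42.1% in targeted 2. In wild-type 1, 2 and 3 it had 47.5% (41.7 to 53.3%), 36.7% (30.8 to 43.0%) and 37.8%. The neighbouring CpG at 149764144 was at 50.3% (43.2 to 57.3%) in wild-type 1 and 31.9% (25.2 to 39.5%) in wild-type 2, so these intervals did not overlap within the wild-type group.

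The H19 upstream control region, the segment set around the CTCF-bound stretch, was read at only 3 CpGs (chr7:149767047-149767135). Their mean was 61.4% in targeted 1, 52.7% in targeted 2, and 54.4, 52.6 and 66.2% in wild-type 1, 2 and 3, and the groups overlapped. The group values were 57.0% ± 6.19 (SD, n = 2) and 57.7% ± 7.37 (SD, n = 3), a difference of -0.668 points (exact permutation p = 1). The CpG at 149767092 had 69.2% in targeted 1 and 66.5% in targeted 2, above the 64.5, 55.2 and 61.2% of wild-type 1, 2 and 3. At 149767047 the levels ran from 60.8 to 69.2%. The CpG at 149767135 had 11 to 26 reads and ran from 27.3 to 68.0%, and with CpGs under 20 reads left out the segment difference became 3.97 points (exact permutation p = 0.4). It was also above 0 without targeted 2 (3.71 points) and without wild-type 3 (3.56 points).

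Inside H19, 4 CpGs (chr7:149761700-149761917) were highly methylated, at 87.4% in targeted 1 and 84.7% in targeted 2 against 82.6, 82.0 and 78.1% in wild-type 1, 2 and 3. The groups did not overlap, with the targeted mean 5.17 points higher (exact permutation p = 0.1). The difference was 9.69 points with CpGs under 20 reads left out, 8.51 with pooled reads, and 1.47 with medians over CpGs (exact permutation p = 0.7). A single CpG at 149761873 carried most of this, with 79.7 and 74.5% in the targeted libraries against 62.1, 59.2 and 55.8% in the others. Its difference of 18.1 points had an unadjusted p of 0.0547 in edgeR's quasi-likelihood test. Downstream of the gene, 3 CpGs were covered only in wild-type 3.

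Between the H19 control region and Igf2, 4 CpGs were covered in all libraries and they differed widely. The CpG at 149797431 was partly methylated at 32.6 to 39.1% in the 5 libraries and was read on the forward strand only, while 149797522 was at 0 to 12.8% and 149823138 at 85.7 to 100%. The segment mean of 33.2 and 33.7% in the targeted and 33.1, 36.5 and 41.1% in the wild-type libraries therefore describes no single CpG, and its difference of -3.46 points had an exact permutation p of 0.4. Without wild-type 3 it was -1.37 points and without wild-type 1 it was -5.34 points.

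Igf2, which encodes an insulin-like growth factor expressed from the paternal copy, was largely unmethylated. A dense block of 70 CpGs (chr7:149844902-149845822) contains the measured CpGs of the promoter shown above, though not the whole promoter. Its mean was 1.0 and 0.902% in the targeted and 1.06, 1.06 and 0.974% in the wild-type libraries. Over all 127 CpGs of the gene segment the libraries lay between 4.79 and 5.66%, with a difference of 0.261 points (exact permutation p = 0.7) that was 0.00191 without wild-type 3. Methylated CpGs in the gene stood outside this block. A group of 3 CpGs (149841596-149841631) was at 69.7 and 74.0% against 69.4, 73.3 and 50.2%. At 149843247 the level was 95.9 and 88.9% against 82.4, 82.4 and 67.2%. The latter difference of 15.1 points had an unadjusted p of 0.0255 and an adjusted p of 0.876 in edgeR's test. The other CpGs named in this window by smallest unadjusted p, 149850096 and 149850147, differed by 3.44 and -2.08 points. Upstream of Igf2, 9 CpGs were fully methylated in all libraries, at 96.1 to 97.7%.

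Dlk1 encodes a transmembrane protein related to the Notch ligands. The covered CpGs toward its start were mostly unmethylated and those at its far end were partly methylated. The start itself was not placed on the deposited positions. The 44 CpGs at chr12:110691550-110692177 had means of 2.91 and 3.12% in targeted 1 and 2 and of 2.46, 2.79 and 2.89% in wild-type 1, 2 and 3. The 7 CpGs at chr12:110698041-110698228 had means of 66.9 and 61.6% in the targeted and 48.1, 56.3 and 52.4% among wild-type libraries, and the groups did not overlap. This block was singled out after its values were seen. In the tile of reads that covers it (chr12:110698001-110699000) the pooled level was 64.9% ± 5.71 (SD, n = 2) against 53.5% ± 4.60 (SD, n = 3). The difference of 11.4 points did not pass edgeR's quasi-likelihood test, with an unadjusted p of 0.0632 and 0.791 after adjustment over all tiles, and it lay between 7.33 and 15.4 points when each library was left out in turn. It was 18.8 points on the CpGs with at least 20 reads in every library. The CpG with the widest gap, 110698228, had 64.0 and 78.3% against 39.1, 51.6 and 38.0%, a difference of 28.2 points (unadjusted edgeR p of 0.0346), with 23 to 50 reads per library. Over all 51 CpGs of the Dlk1 segment the means were 11.7 and 11.2% against 8.72, 10.1 and 9.69%, a difference of 1.90 points (exact permutation p = 0.1). It was 0.321 points on CpGs read on both strands (p = 0.3 by the same exact test), 0.682 with pooled reads (p = 0.4) and 0.156 with medians (p = 0.7). Each of the 7 CpGs at the far end was read on a single strand, so the value on both strands leaves that block out. Whether their strands agree was not measured.

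Upstream of Dlk1, 28 CpGs had means of 18.4 and 18.3% in the targeted and 17.7, 17.7 and 17.6% in the wild-type libraries, a difference of 0.676 points (exact permutation p = 0.1). The groups did not overlap, though the gap was under 1 point. Of the 28 CpGs, 23 had a mean below 20% and 5 a mean above 80%, so the segment mean describes no single CpG. With pooled reads the segment difference was 5.71 points (exact permutation p = 0.3), a value that also depends on how reads are spread over the CpGs. Within its tiles the pooled levels differed by only 0.0404, 1.01 and 1.37 points. In the nearly unmethylated tile at chr12:110688001-110689000 targeted 1 had 865 reads, against 1421 to 1860 in the other libraries. In this segment the CpG at 110688161 differed by 3.63 points (unadjusted edgeR p of 0.0120) and the CpG at 110686714 by 6.89 points (0.0245). Both had adjusted p-values of at least 0.876 in edgeR's test.

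The 35 CpGs between Dlk1 and the intergenic control region were mostly methylated, with means of 81.6 and 83% in the targeted and 80.2, 81.7 and 81.5% in the wild-type libraries (difference 1.16 points, exact permutation p = 0.3). The difference was 0.467 points without targeted 2, 1.85 without targeted 1 and 2.81 with pooled reads. The smallest tile p of all windows came from this stretch. At chr12:110737001-110738000 the levels were 97.7 and 99.3% against 93.3, 94.4 and 93.2%, a difference of 4.84 points (unadjusted edgeR p of 0.00742, adjusted 0.789). Within it the CpG at 110737896 differed by 7.12 points (unadjusted edgeR p of 0.0161). The tile at chr12:110735001-110736000 was at 70.1 and 69.3% against 67.8, 69.5 and 76.6%. Its difference of -1.58 points had an adjusted p of 0.961 in edgeR's test.

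Some intermediate levels in the same stretch came from unlike readings of the strands. At 110735082 the mean over the 5 libraries was 96.9% on the forward strand and 0.535% on the reverse strand. At 110743885 it was 92.1% forward and 0.441% reverse, and at 110743933 it was 0.50% forward and 91.5% reverse. The CpG at 110735129 read 47.5% forward and 94.6% reverse. The CpG at 110692177 in Dlk1 read 0.357% forward and 36.9% reverse. A mean near 50% over strands at these CpGs is thus an average of unlike readings, and its cause was not tested.

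Beside H19 and Meg3 and upstream of Rasgrf1, some CpGs were read on both strands in every library. By their means over the 5 libraries they were partly methylated on each strand. The CpG at 149764109 read 45.4% forward and 39.0% reverse, and the H19 control region CpG at 149767092 read 70.6 and 62.5%. Beside Meg3, 110778847 read 55.4 and 56.1% and 110780016 read 62.6 and 56.3%, and upstream of Rasgrf1 89769488 read 38.5 and 33.0%. Single libraries spread more widely. In wild-type 3, 110780016 read 90.6% forward and 52.8% reverse, and in targeted 2, 149767092 read 81.8% forward on 11 reads. Of the 29 partly methylated CpGs of the windows 9 were read on both strands in every library, and in 3 of these (33.3%) the strands were more than 50 points apart. Over all autosomal CpGs this held for 6988 of 14144 (49.4%). Among all 89 CpGs of the windows read on both strands, 79 had strand means within 5 points of each other and 5 were over 30 points apart.

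**Figure D3:**
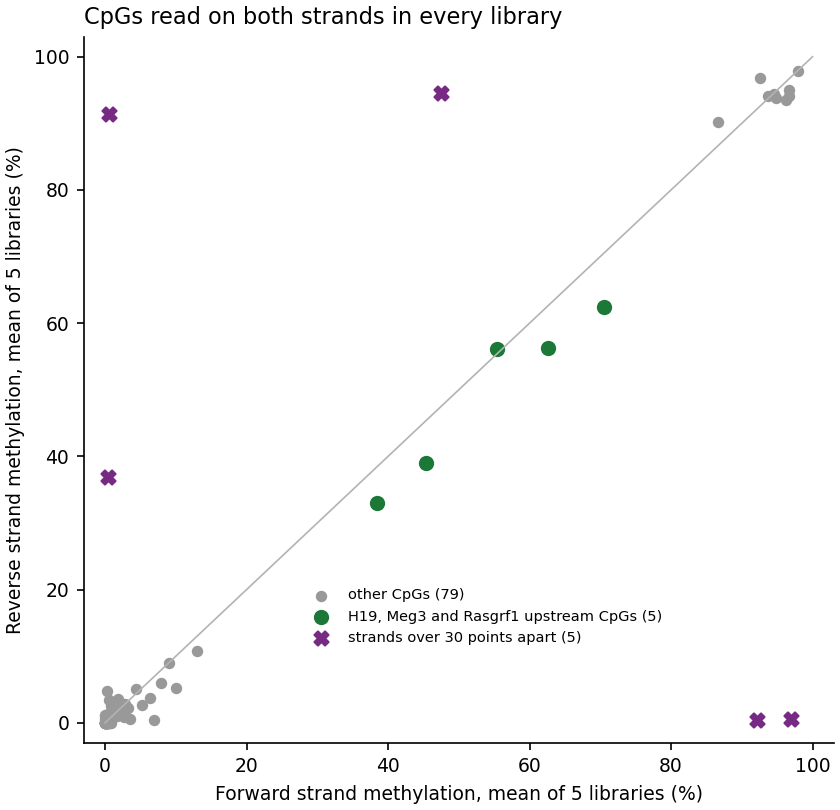
Mean methylation of the forward strand (horizontal axis, %) against the reverse strand (vertical axis, %) over 5 libraries, for the 89 CpGs of the windows read on both strands in every library; the line marks equal readings. The 5 green CpGs beside H19 and Meg3 and upstream of Rasgrf1 lie near the line in the middle of the scale, and the 5 crosses are the CpGs with strands over 30 points apart.

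The intergenic control region between Dlk1 and Meg3 is the primary imprint of this domain. The 6 CpGs covered in the segment set for it had a mean of 80.9 and 80.1% in the targeted and 81.1, 79.0 and 77.7% in the wild-type libraries, a difference of 1.22 points (exact permutation p = 0.5) that was 0.439 without wild-type 3 and 2.15 without wild-type 1. That mean was made of 5 CpGs (chr12:110764888-110764946) at 92.2 to 96.9% in the 5 libraries and 1 CpG at 110764001 at 0 to 5.61%. The best covered, 110764904, was at 95.2 and 97.7% against 94.5, 92.7 and 90.1%. No partly methylated CpG was covered in the segment, so these values do not show the level near 50% of a region methylated on 1 copy. Without an mm9 annotation, whether these CpGs lie inside the control region or at its edge could not be settled.

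Meg3 is a long noncoding RNA gene expressed from the maternal copy. The 6 CpGs on its promoter side (chr12:110778801-110780022), which flank the promoter shown above, had a mean of 60.6% in targeted 1 and 47.6% in targeted 2, and of 56.9, 51.3 and 58.6% in wild-type 1, 2 and 3. The group values were 54.1% ± 9.20 (SD, n = 2) and 55.6% ± 3.80 (SD, n = 3), a difference of -1.46 points (exact permutation p = 0.9). The targeted libraries were the highest and the lowest of the 5, and the difference was -7.97 points without targeted 1 and 5.04 points without targeted 2. The CpG with most reads, 110778847, had 61.4 and 52.8% in targeted 1 and 2 and 57.6, 52.5 and 54.2% in wild-type 1, 2 and 3. The 3 CpGs after the promoter (110779987-110780022) were at 58.4 and 41.4% against 55.0, 48.5 and 61.2%. Within the gene, 14 CpGs were fully methylated, at 95.1 to 97.5% in the 5 libraries.

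Rasgrf1 encodes a guanine nucleotide exchange factor for Ras, and the methylated region that controls it lies upstream of its promoter. All 6 CpGs covered in that window had means below 50%, and they formed a pair of blocks. The block at chr9:89769450-89769529 was at 26.0 and 19.4% in targeted 1 and 2 and at 32.2, 14.8 and 19.6% in wild-type 1, 2 and 3. The block at chr9:89780620-89780724 was at 13.2 and 15.1% against 19.8, 12.2 and 15.2%. In both blocks wild-type 1 was the highest library and wild-type 2 the lowest, with the targeted libraries between them. The CpG at 89769488 was partly methylated in every library, at 36.4 and 33.2% in the targeted libraries, 47.8% (41.4 to 54.3%) in wild-type 1, 28.6% (23.5 to 34.3%) in wild-type 2 and 31.9% in wild-type 3. The CpGs 89769450, 89780659 and 89780724 had the smallest p-values of this window and differed by 2.41, -5.40 and 2.07 points. Whether any of the 6 lies in the imprinted region was not settled here, and their mean levels of 13.3 to 35.6% were below that of a region methylated on 1 copy in every cell.

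Differences between the groups were then tested in fits over the whole genome, on tiles of 1000 bases with at least 3 CpGs and on single CpGs. Calls required an adjusted p under 0.05, together with a gap of 10 points or more for a tile and 25 points or more for a CpG. By edgeR's quasi-likelihood test 0 of the 29 tiles of the windows were called, against 0.0166% of 90368 tiles over the autosomes. Of the 264 CpGs of the windows that could be tested 0 were called, against 0.00885% of 757413. The lowest adjusted p was 0.789 for a tile and 0.876 for a CpG, and limma on the log2 ratio of methylated to unmethylated reads also gave 0 calls, against 0% of all tiles and 0.00489% of all CpGs, with lowest adjusted p-values of 0.745 and 0.919.

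At an unadjusted p under 0.05 in edgeR's test, 3 tiles had higher and 0 had lower levels in the targeted group, against 5.35% and 0.976% of all tiles. limma gave 2 such tiles in either direction, against 6.48% of all tiles. For CpGs the counts were 7 higher and 2 lower, against 2.29% and 0.678% of all CpGs tested, and limma gave 13 in either direction, against 5.24%. Both targeted libraries were above every wild-type library in 5 of 29 tiles and in 28 of 264 CpGs, against 17.2% of all tiles and 10.6% of all CpGs. They were below every wild-type library in 0 tiles and 13 CpGs, against 5.23% and 4.99%. The median difference was 0.274 points in the tiles of the windows and 0.287 points in all tiles, and 0.145 points in their CpGs and 0.202 points in all CpGs tested. The tile on the H19 promoter side (chr7:149764001-149765000) was at 41.0 and 43.3% against 48.6, 35.4 and 40.5%, with an adjusted p of 0.989.

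Partly methylated CpGs of the whole genome were higher in targeted 1 than in any other library, which bears on how the imprinted segments are read. The 21080 autosomal CpGs with a mean of 40 to 60% averaged 55.3% in targeted 1, 49.1% in targeted 2 and 48.8, 48.1 and 48.9% in the wild-type libraries. Among those read on both strands in every library with strand means within 20 points (2473 CpGs) the values were 57.4 and 48.7% against 48.3, 47.3 and 48.1%. Among those with strands more than 20 points apart (5230 CpGs) they were 49.9 and 49.1% against 49.1, 48.9 and 49.7%. Targeted 1 was thus 9.52 points above the wild-type mean where the strands were close and 0.692 points above it where they were not.

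Control regions methylated on the maternal copy, 57 CpGs at Peg3, Snrpn, Kcnq1ot1, Igf2r and Mest, gave the closest comparison. Their mean level was 53.1% in targeted 1, 38.3% in targeted 2 and 38.6, 39.3 and 38.2% in wild-type 1, 2 and 3. Targeted 1 was the highest library at each of the 5, by 8.55 to 15.0 points over the next. At the H19 promoter side it was 1.47 points below the wild-type mean. At the H19 control region it was 3.71 points above that mean, and at the Meg3 promoter side 5.04 points above it. At the 7 CpGs at the far end of Dlk1 targeted 1 was the highest library, at 66.9% against 61.6% in targeted 2. In the first block upstream of Rasgrf1 it was not, at 26.0% against 32.2% in wild-type 1. By unweighted means targeted 1 lay within the wild-type range at the H19 promoter side and the H19 control region. Targeted 1 was the highest library at the Meg3 promoter side, at 60.6% against 58.6% in wild-type 3. With pooled reads it was also the highest at the H19 control region, at 65.8%, before wild-type 3 at 64.9% and targeted 2 at 64.1%. On the H19 promoter side it stayed within the wild-type range with pooled reads, at 41.0%.

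The 3 segments together averaged 54.3 and 47.9% in the targeted and 53.3, 46.7 and 55.7% in the wild-type group. Their level minus that of the maternal regions was 1.28 points in targeted 1, 9.63 in targeted 2, and 14.8, 7.42 and 17.5 in wild-type 1, 2 and 3. Targeted 1 was the lowest and targeted 2 lay within the wild-type range, and the difference between the groups of -7.78 points had an exact permutation p of 0.3. Without targeted 1 it was -3.61 points. This choice of 3 segments was made after the data were seen. With all 5 segments of mean 20 to 80%, which include the mixed intergenic segments, the difference between the groups was -7.91 points (exact permutation p = 0.3, adjusted over a family of 7 comparisons 0.525). Without targeted 1 it was -2.47 points, and the group difference of the maternal regions themselves, 6.98 points with all libraries (exact permutation p = 0.3), was -0.419 points.

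Set against the 40 to 60% class in the same library, the differences between the groups were -3.92 points for the H19 promoter side, -4.32 for the H19 control region and -5.11 for the Meg3 promoter side. They were -7.11 for the CpGs between the H19 control region and Igf2 and -2.43 for the intergenic control region. Single libraries moved these values. Leaving each out in turn gave -8.19 (without targeted 2) to 0.351 (without targeted 1) for the H19 promoter side, and -6.64 (without wild-type 2) to -0.244 (without wild-type 3) for the H19 control region. For the Meg3 promoter side it gave -8.55 (without targeted 1) to -1.68 (without targeted 2). The CpGs between the control region and Igf2 ran from -10.4 (without targeted 2) to -3.78 (without targeted 1), and the intergenic control region from -5.10 (without targeted 2) to 0.246 (without targeted 1). The exact permutation p-values of these 5 lay between 0.3 and 0.7, and none was under 0.525 after adjustment over the 7 comparisons. The cause of the level of targeted 1 was not tested.

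**Figure D4:**
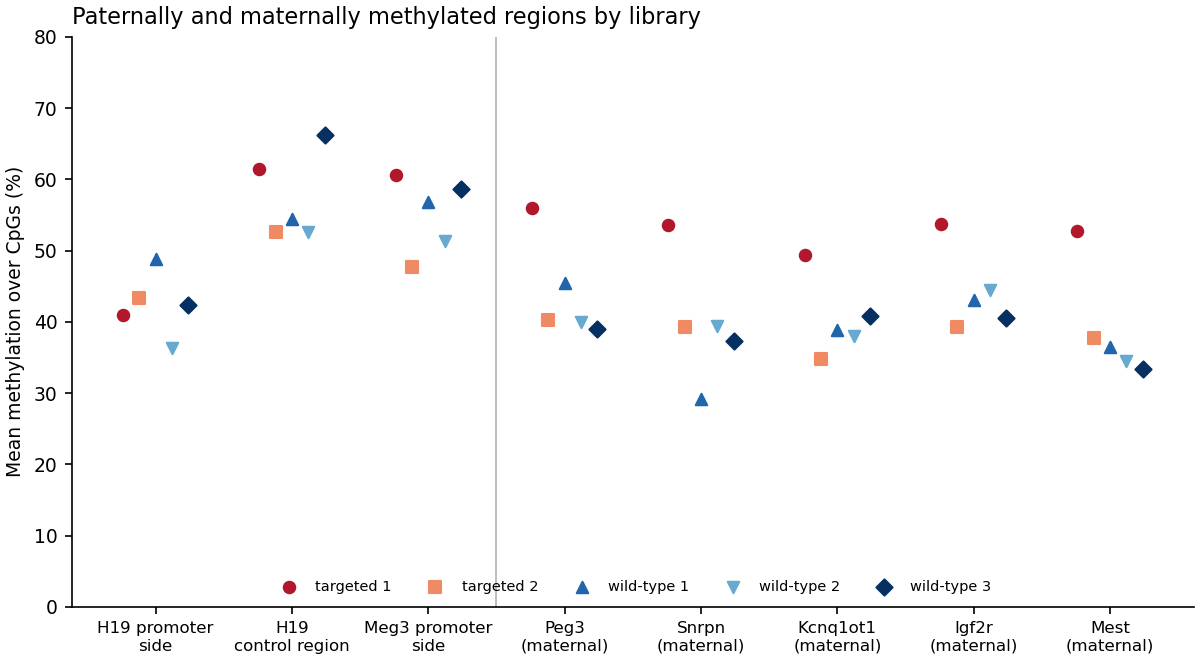
Mean methylation (vertical axis, %) in each library of the H19 promoter side, the H19 control region and the Meg3 promoter side, left of the line, and of 5 maternally methylated control regions, right of it; each point is 1 library. Targeted 1 stands 8.55 to 15.0 points above the next library at the 5 maternal regions. By the unweighted means shown it lies among the wild-type libraries at both H19 segments and is the highest at the Meg3 promoter side.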

How the data were processed

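LSK cells gave 2 targeted and 3 wild-type libraries. Which gene was targeted is not reported here. The submitters' processing notes name Bismark and the mm9 (NCBIM37) build. No source used here gives the Bismark version. Each deposited table gives, per the file headers, the coverage (a count of reads) and the percent of C and T reads at each CpG and strand. Percent times coverage came out whole, within 0.01 reads, for 99.97% of positions. The highest 0.1% of coverage was left out, strands were merged, and CpGs with at least 10 reads in all 5 libraries were kept. Window and segment values are unweighted means over CpGs.

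Tiles and CpGs were tested with edgeR 4.0.16 (R 4.3.3), using the quasi-likelihood test on methylated and unmethylated counts with a factor for each library, a common dispersion from 20000 rows and Benjamini-Hochberg adjustment over all autosomal rows. limma 3.58.1 (1 read added to each count) was the alternative. CpGs with only methylated or only unmethylated reads were not tested. The tile test was checked on simulated data with a fixed spread between libraries. That check does not give its power in these windows. Named tiles have at least 5 CpGs and a mean of 20 to 80%. Named CpGs are the 3 with the smallest p in each window and, in each partly methylated segment, the most deeply read and the lowest and highest by level; others named were chosen after their values were seen. Alternatives were a coverage minimum of 20, CpGs read on both strands, each library's own CpGs, pooled reads, medians, tiles of 500 bases or at least 5 CpGs, the replicate block and leaving out each library. The members, segments and lists were chosen with earlier results of these data known.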

Additional observations from a re-analysis of the deposited data

How the results depend on the processing

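The count of called tiles and CpGs in the windows was 0 under every alternative run, and the differences of the chromosome 12 window (0.849 to 1.47 points) and of the H19 and Igf2 window (0.112 to 0.371) kept their sign when each library was left out. Other settings moved their size: CpGs read on both strands gave 0.269 and 0.354, medians gave 4.80 for chromosome 12, and pooled reads gave 6.38 and 2.28. Pooled reads weight each CpG by its reads, and the CpGs read on both strands leave out the far end of Dlk1. The medians over CpGs turned the sign for the H19 and Igf2 window (-0.126), the Rasgrf1 window (0.184), the H19 control region (2.78), the Meg3 promoter side (1.03) and the Meg3 gene (-0.232). A coverage minimum of 20 gave 3.97 for the H19 control region and 0.415 for it relative to the 40 to 60% class. With CpGs read on both strands only, the H19 promoter side gave 1.04, the H19 control region 7.55 and the stretch between Dlk1 and the intergenic region -0.356. With each library's own CpGs, the H19 promoter side gave 0.621, the H19 control region 4.37, the stretch between it and Igf2 5.71, upstream of Igf2 -1.99 and the Meg3 promoter side 5.14. Pooled reads gave 0.653, 3.46 and 0.186 for the H19 promoter side, the H19 control region and the Meg3 promoter side. Replicate numbers 1 and 2 are shared by the groups, and same-numbered libraries correlated by 0.000447 and 0.0668. The correlations of targeted 2 are those of targeted 1 with the sign turned, so they are not separate checks. Whether a shared number marks a pairing was not settled. The replicate block gave 3.56 for the H19 control region, -0.201 upstream of Igf2, 0.0359 for the Meg3 promoter side, 1.06 for the tile at 110735001 and -0.137 for the CpG at 89780724, and 3 CpGs with an unadjusted p under 0.05 in place of 9. Leaving out each library in turn moved the sign for the Rasgrf1 window (-3.26 to 2.98), H19 promoter side (-3.35 to 2.87), H19 control region (-5.05 to 3.71), upstream of Igf2 (-0.577 to 0.860), Meg3 promoter side (-7.97 to 5.04) and Meg3 gene (-0.334 to 1.34). The same held for the maternal mean (-0.419 to 14.4), the H19 promoter side (-8.19 to 0.351) and the intergenic control region (-5.10 to 0.246) relative to the 40 to 60% class, the tiles at 110735001 (-3.33 to 1.06) and 149764001 (-2.41 to 4.19), and the CpGs 89769450 (-0.690 to 6.57) and 89780724 (-0.137 to 5.66). The number of tiles with an unadjusted p under 0.05 was 1 with tiles of 500 bases or with at least 5 CpGs and 1 to 4 with a library left out, and that of CpGs 2 to 12. In all of these the cause was not tested. Single CpGs had as few as 10 reads at 149841596 to 149841631 in Igf2, 11 in the H19 control region and 12 at the Meg3 promoter.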
